A study of Homo sapiens with 6 samples.

Results

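The control cells of this study are TOV21G, an established human cell line from an ovarian clear cell carcinoma, and their baseline transcriptome is described here from 2 of the 6 libraries of the series. The members were taken by their titles, NC-1 and NC-2, and the other 4 libraries, from the knockdown groups of the study, were not used. NC is read as a negative control siRNA, because the titles say no more and no siRNA sequence was listed with them. The labels give the genotype of both libraries as WT, the material as total RNA and the cells as clear cell carcinoma cells, and they do not say whether the replicates were separate cultures. All results are therefore levels in 1 cell line under 1 condition, with no test, and the spread between the 2 libraries may be technical. No sequence variants were analysed.

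Ovarian clear cell carcinoma is thought to arise in most cases from endometriosis, and it keeps features of a secretory epithelium of the Mullerian tract. Its cells are known for stored glycogen and for abundant secreted proteins, among them osteopontin (SPP1) and interleukin 6. Inactivation of ARID1A, a subunit of the SWI/SNF chromatin remodelling complex, and activation of the PI3K pathway are frequent in the disease.

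The unit of all levels is TPM, a length-scaled unit that divides the reads of a gene by its length and scales each library to the same sum, so that genes can be compared with each other. Where 2 values are given, the first is NC replicate 1 and the second NC replicate 2. A gene counts as expressed at a mean of 1 TPM or more. At that level a gene had a median of 28 and 31 reads, and 71.5% of all genes in the table passed, which is the background for every list below.

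Several of the most abundant chemokine genes and IL6 share a sequence close to their start site. These stretches are shown first because the chemokine results refer to them. Each is the 100 bases upstream of the first listed RefSeq start, 5′ to 3′ on the gene's strand (GRCh38.p14), ends at the base before the transcript and lies outside its exons. Capitals mark GGANTTTCC, the core of a common form of the NF-kB site. The stretches lie at chr4:73869293-73869392 (+) for CXCL1, chr4:74099196-74099295 (-) for CXCL2, chr4:74038690-74038789 (-) for CXCL3, chr4:73998678-73998777 (-) for CXCL5, chr4:73836578-73836677 (+) for CXCL6, chr7:22727100-22727199 (+) for IL6 and chr4:73740469-73740568 (+) for CXCL8.
CXCL1: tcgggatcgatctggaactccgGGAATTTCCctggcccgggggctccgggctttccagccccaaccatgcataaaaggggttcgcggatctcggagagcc
CXCL2: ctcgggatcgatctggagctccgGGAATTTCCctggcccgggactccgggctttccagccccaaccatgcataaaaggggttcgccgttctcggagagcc
CXCL3: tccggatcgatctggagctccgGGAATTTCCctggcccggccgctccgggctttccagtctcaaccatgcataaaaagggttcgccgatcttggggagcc
CXCL5: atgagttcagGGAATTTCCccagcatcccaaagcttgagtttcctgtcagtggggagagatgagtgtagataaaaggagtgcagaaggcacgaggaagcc
CXCL6: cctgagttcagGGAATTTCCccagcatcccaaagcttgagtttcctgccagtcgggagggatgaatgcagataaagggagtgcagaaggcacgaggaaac
IL6: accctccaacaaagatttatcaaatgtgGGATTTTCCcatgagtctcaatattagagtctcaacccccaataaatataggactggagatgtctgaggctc
CXCL8: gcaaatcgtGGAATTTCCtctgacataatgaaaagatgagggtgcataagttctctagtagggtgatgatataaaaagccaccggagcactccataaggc

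The 2 libraries held 17872884 and 18097337 reads over 16910 genes. A mean of 0.1 TPM or more was reached by 14203 genes, 1 TPM by 12091, 10 TPM by 8246, 100 TPM by 1321 and 1000 TPM by 139. At the other end, 949 genes had 0 reads in both libraries. A count of 0 allows up to 0.168 and 0.166 counts per 1000000 reads (3 counts, counting error only). The 13 protein-coding transcripts of the mitochondrial genome took 5.54% (95% Wilson interval 5.53 to 5.55) and 6.0% (5.99 to 6.01) of the reads. These intervals cover read sampling only, and those of the 2 libraries did not overlap. The same transcripts took 19.2% and 18.4% of the TPM. Because TPM divides reads by length, the shares of reads and of TPM need not be equal. For some short transcripts the length the deposited TPM uses is also far below the transcript length. For MT-ATP8, with a transcript of 207 bases, 3587 and 2739 reads were deposited as 63427 and 51061 TPM, which implies a length of 4.17 and 3.63 bases. Its value is therefore not read as a level.

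**Figure D1:**
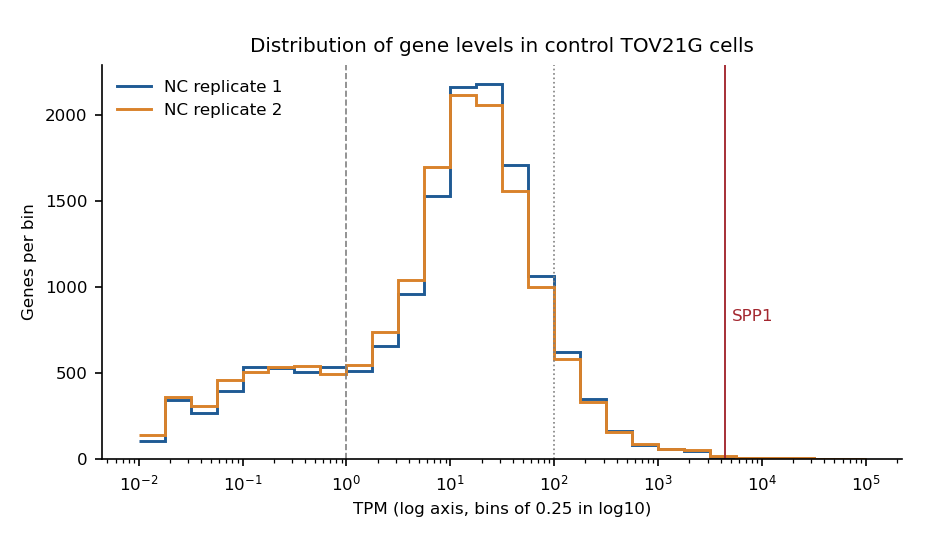
Number of genes (vertical axis) in bins of TPM (horizontal axis, logarithmic) in NC replicate 1 (blue) and NC replicate 2 (orange). The dashed line is 1 TPM, the dotted line 100 TPM and the red line the mean of SPP1; both curves peak between 10 and 31.6 TPM, with SPP1 far to the right of the peak.

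The libraries ranked genes in a similar but not identical order. Across the 12082 genes at or above 1 TPM with a value above 0 in both, Spearman's rho was 0.994, which is a correlation over genes and not over independent replicates. The median fold between the libraries was 1.12 and 95% of genes were within 1.44-fold. A gene was more often higher in replicate 1 when its transcript was long and in replicate 2 when it was short. The median ratio of replicate 2 to replicate 1 was 1.08 for 737 transcripts under 1000 bases and 0.83 for 2514 transcripts of 5000 bases or more. Whether RNA integrity or library preparation has a part in this was not tested. The read counts differed by more than counting noise alone, with a chi-square over degrees of freedom of 8.28, and both libraries were kept as replicates.

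Among nuclear genes the top of the transcriptome held iron storage, calcium binding, translation, cytoskeleton, glycolysis and metal binding genes, with SPP1 among them. FTH1, the heavy chain of the iron store ferritin, came first at 15690 and 15979 TPM. S100A6, a small calcium-binding protein, had 9149 and 10547 TPM. EEF1A1, which brings aminoacyl-tRNA to the ribosome, had 9323 and 9389 TPM. In deposited TPM the levels of S100A6 and EEF1A1 overlapped, so the order of these neighbours is not resolved in that unit. It also depends on length, because the deposited TPM of S100A6 implies 153.7 and 148.4 bases for a transcript of 673 bases. With the recomputed lengths described below, S100A6 had a mean of 3740 TPM (overall rank 17) and EEF1A1 10428 TPM (overall rank 6). FTH1 and EEF1A1 have many processed pseudogenes that could take or lend reads, and their levels are uncertain for that reason.

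Beta-actin (ACTB) followed at 5779 and 5514 TPM and the glycolytic enzyme GAPDH was at 4798 and 4916 TPM. The metallothionein MT2A, which binds zinc and copper, had 4404 and 5280 TPM. SPP1 was ninth among nuclear genes at 4475 and 4387 TPM, from 76807 and 81505 reads. The genes ranked from RPS29 to SPP1 all lay between 4124 and 5345 TPM in both libraries, and their order within that range differs between the libraries. The remaining genes of the 25 highest were 12 further ribosomal protein genes, PPIA (a prolyl isomerase), TPT1, MYL6 (a myosin light chain), PFN1 (profilin) and LGALS1 (galectin 1), between 2505 and 4776 TPM.

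Ribosomal protein genes made up 13 of the 25 and 61 of the 100 highest nuclear genes, and 14.4% and 16.2% of all TPM. Of the 82 with a value, 81 were expressed. Their ranks depend on length: with the median length of each gene's principal GENCODE 29 transcripts in place of the deposited effective length, RPS29 moved from overall rank 16 to 160 and MT2A from 18 to 102. SPP1 moved up under the same change, from 20 to 13, at 5990 TPM. Under that change 12 of the 25 highest nuclear genes stayed in the 25 highest.

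**Figure D2:**
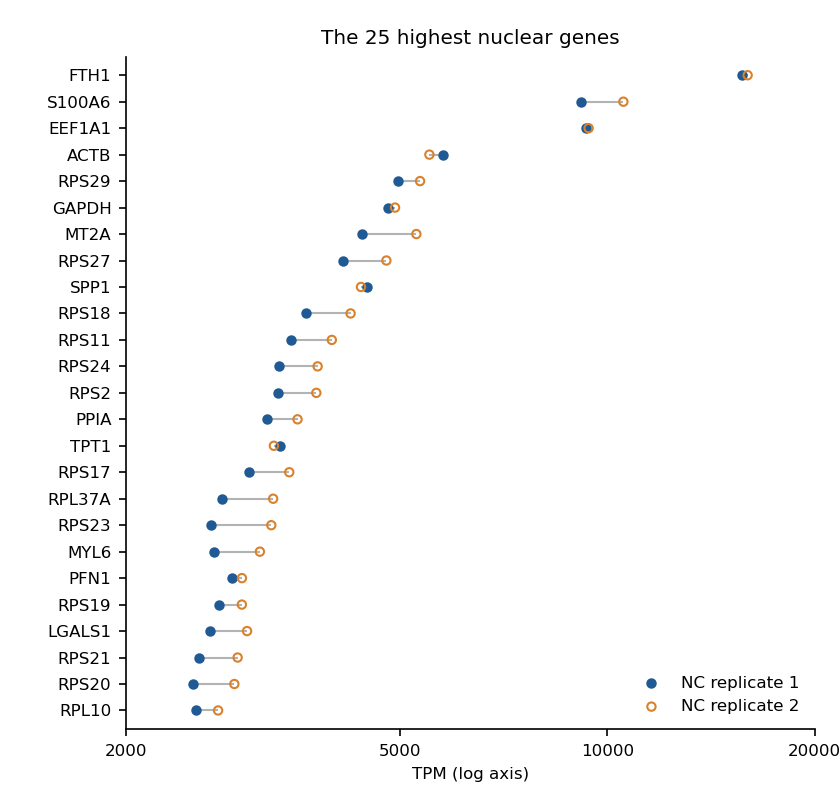
TPM (horizontal axis, logarithmic) of the 25 nuclear genes with the highest mean, in NC replicate 1 (filled blue) and NC replicate 2 (open orange). FTH1 stands alone near 15834 TPM on average, and short transcripts such as those of ribosomal protein genes sit to the right in replicate 2.

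The label of the cells was set beside markers of clear cell carcinoma. Of 24 such genes, 19 were expressed (79.2%, against 71.5% of all genes). At 100 TPM or more were 7 of the 24, against 7.81% of all genes. The share expressed was near that of all genes, so that count alone does not check the label. SPP1 led them. TFPI2, a secreted inhibitor of serine proteases that is used as a serum marker of the disease, had 1110 and 1060 TPM. FXYD2, the gamma subunit of the sodium-potassium pump, had 909.6 and 976 TPM.

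SOD2, the mitochondrial superoxide dismutase, had 489 and 417 TPM, and the annexin ANXA4 had 189 and 179 TPM. LGALS3 (galectin 3) was at 237 and 245 TPM, the glutaredoxin GLRX at 63.2 and 66.6 TPM, the receptor MET at 55.0 and 44.1 TPM and the mitochondrial arginase ARG2 at 46.5 and 43.9 TPM. In both libraries all of these lay above the median of all genes, 10.01 and 8.85 TPM.

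The proteoglycan GPC3 (21.9 and 24.4 TPM), the racemase AMACR (21.9 and 19.5), ZNF217 (19.2 and 16.2) and the phosphatase PPM1D (12.9 and 10.1) were also expressed. CTH had 10.3 and 8.01 TPM, SLC3A1 5.29 and 4.68, tissue factor (F3) 2.61 and 2.43, and CEACAM1 1.75 and 1.34. Of the 24, 5 were below 1 TPM, and commonly used markers were among them. NAPSA, the aspartic protease napsin A, had 0.55 and 0.57 TPM. GPX3, a secreted glutathione peroxidase, had 0.3 and 0.58 TPM. DPP4 (0.22 and 0.32), PAEP (0.13 and 0.39) and LEFTY1 (0 reads in both) completed the low group. Of the markers set beside the label, SPP1 and ANXA4 were thus abundant and NAPSA and GPX3 were low.

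The Mullerian ducts give rise to the oviduct, uterus and upper vagina. In a list of regulators of these ducts and of the wider female reproductive tract, 9 of 22 were expressed, against 71.5% of all genes. The list is mixed, and NR5A1, for example, is also in the list of ovarian granulosa cells and stroma. The count is therefore not a measure of Mullerian identity. PAX8, a lineage factor of Mullerian and renal epithelium, had 205 and 177 TPM. Below it came MECOM (27.5 and 21.9), the ligand WNT5A (19.5 and 15.4), PAX2, a partner of PAX8 in the developing tract and kidney (17.96 and 14.5), and the homeobox factor MSX2 (16.2 and 14.8). GATA2 (4.46 and 3.41), MEIS2 (3.79 and 2.99), MEIS1 (2.62 and 2.36) and MSX1 (1.25 and 1.19) were low but above 1 TPM.

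Hormone and lineage factors were among those below 1 TPM. ESR1, the oestrogen receptor alpha, had 0.34 and 0.16 TPM. WT1, typical of serous rather than clear cell tumours, had 0.55 and 0.59 TPM. FOXJ1, the master factor of ciliated cells, had 0.29 and 0.59 TPM, and GATA3 0.4 and 0.43 TPM. SOX17, GATA4, NR5A1 and WNT7A had 0 reads in both libraries, and TCF21, WNT4, LHX9 and LHX1 were at or below 0.13 TPM.

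**Figure D3:**
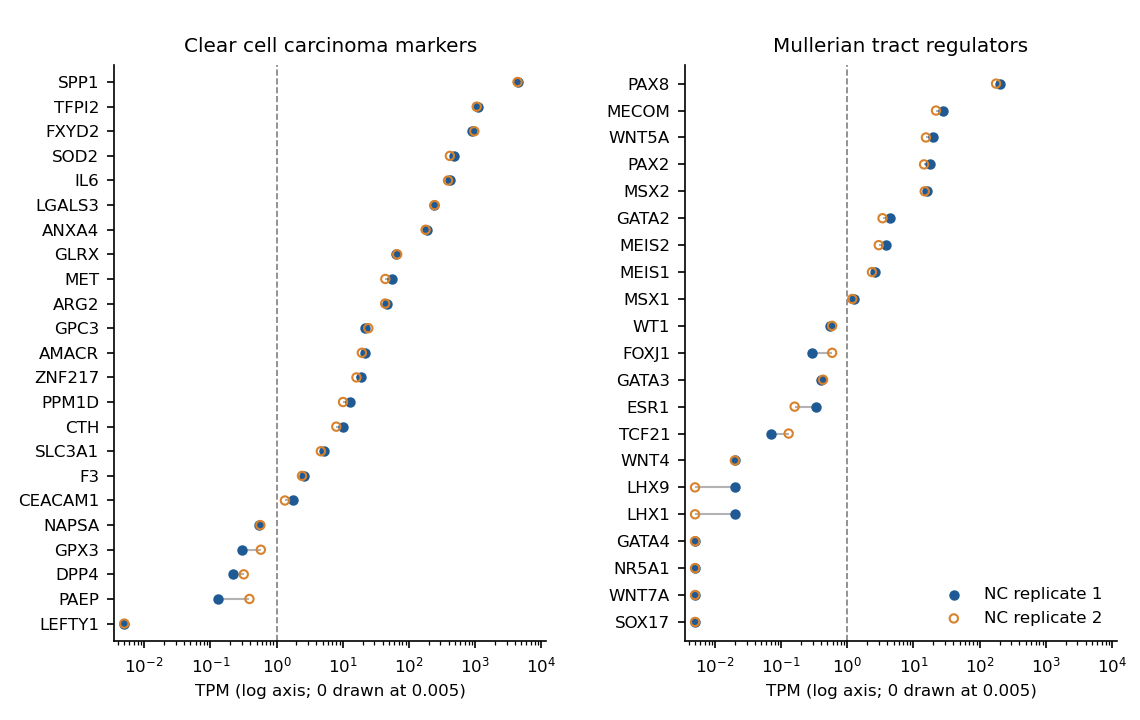
TPM (horizontal axis, logarithmic, with 0 drawn at 0.005) of the clear cell carcinoma markers (left) and the regulators of the Mullerian and wider female reproductive tract (right). NC replicate 1 is filled blue and NC replicate 2 open orange. The dashed line is 1 TPM; SPP1 is the highest marker and PAX8 the highest regulator plotted, and genes not named in the text are left out.

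HOX genes encode position along the body axis, and in the female tract HOXA9, HOXA10, HOXA11 and HOXA13 mark the oviduct, uterus, cervix and upper vagina in that order. The HOXA cluster was the most expressed of the 4 clusters, with 10 of 11 genes at or above 1 TPM. HOXA10 had 119 and 118 TPM and HOXA9 had 104 and 89.5 TPM. HOXA11 was lower, at 25.3 and 20.3 TPM, and HOXA13 had 0 reads in both libraries.

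Other HOXA genes ranged from HOXA5 (67.2 and 69.9 TPM) and HOXA7 (54.7 and 55.9) over HOXA6 (27.6 and 15.2), HOXA3 (21.2 and 21.6) and HOXA4 (10.4 and 9.13) to HOXA2 (4.58 and 4.43). In the HOXB cluster 7 of 9 were expressed, led by HOXB7 (22.7 and 23.2 TPM), with HOXB9, HOXB8, HOXB6, HOXB5, HOXB3 and HOXB13 between 1.88 and 4.55 TPM and HOXB2 and HOXB4 at or below 0.21 TPM. In the HOXC cluster 4 of 8 were expressed: HOXC10 (12.5 and 10.7 TPM), HOXC9 (3.99 and 2.8), HOXC6 (2.86 and 2.06) and HOXC4 (2.11 and 1.31). HOXC5, HOXC8, HOXC11 and HOXC13 lay between 0.39 and 0.83 TPM.

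In the HOXD cluster 7 of 9 were expressed, from HOXD8 (9.3 and 7.84 TPM) and HOXD13 (6.06 and 5.27) over HOXD9 (4.89 and 5.41), HOXD10 (4.72 and 3.63), HOXD11 (3.9 and 3.26) and HOXD4 (3.04 and 1.93) to HOXD3 (1.17 and 0.84), which was on different sides of 1 TPM. HOXD1 and HOXD12 were at or below 0.23 TPM. HOXD13 and HOXB13, the posterior genes of their clusters, were thus above 1 TPM while HOXA13 was not detected.

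Regulators of liver and gut endoderm were expressed in 8 of 14 cases. NR1H4, the bile acid receptor FXR, had 23.6 and 22.7 TPM, SOX9 had 23.8 and 20.97 TPM, and KLF5 had 21.4 and 19.4 TPM. FOXA3 followed at 7.88 and 7.44 TPM. HNF4A, the central factor of hepatocytes, had 0.02 and 0.03 TPM.

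Of hepatocyte products, 3 of 7 were expressed. FGB, the beta chain of fibrinogen, had 299 and 304 TPM, whereas the alpha chain FGA had 20.6 and 18.2 TPM and the gamma chain FGG 2.18 and 1.48 TPM. The chains of a protein that is assembled from all 3 thus differed in level by more than the spread between libraries. CPS1, the first enzyme of the urea cycle, had 64.8 and 55.2 TPM and SERPINA1, alpha-1-antitrypsin, had 41.3 and 42.4 TPM. Albumin (ALB) had 0 reads in both.

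Epithelial and mesenchymal genes were expressed side by side. The simple epithelial keratins KRT8 and KRT18, which pair in a filament, had 284 and 278 TPM and 271 and 276 TPM. KRT7, the keratin used to diagnose Mullerian tumours, had 6.78 and 6.61 TPM, KRT19 had 1.94 and 1.61 TPM, and KRT20 and KRT5 had 0 reads. Vimentin (VIM), the filament protein of mesenchymal cells, was above the keratins at 2359 and 2487 TPM.

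Of junction and surface genes of epithelia, 22 of 28 were expressed. The tight junction protein CLDN1 led at 398 and 341 TPM, followed among those named here by plakoglobin (JUP, 77.4 and 68.9) and desmoglein 2 (DSG2, 40.01 and 31.5). E-cadherin (CDH1), which holds epithelial cells together, had 2.82 and 2.02 TPM, and N-cadherin (CDH2) had 0.3 and 0.05 TPM. EPCAM had 6.55 and 5.25 TPM, and RAB25 had 0 reads in both.

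Transcription factors that maintain epithelium were expressed in 5 of 13 cases. TFAP2A had 39.5 and 34.8 TPM and ELF3 30.8 and 29.3 TPM, whereas GRHL2 had 0.01 TPM in both and the splicing regulator ESRP1 and the basal factor TP63 had 0 reads. Factors that drive a mesenchymal state were expressed in 7 of 12 cases. TWIST1 had 20.6 and 19.7 TPM and ZEB1 14.02 and 10.5 TPM, whereas SNAI1 had 0.21 and 0.53 TPM and SNAI2 had 0 reads. Of mesenchymal structural genes, 10 of 18 were expressed, led by VIM, S100A4 (1967 and 2105 TPM) and collagen COL1A2 (215 and 190 TPM). Fibronectin (FN1) was at 3.93 and 3.9 TPM.

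Markers of cells that a culture of a carcinoma line should lack were mostly silent. Of 10 fibroblast markers only DCN passed, and its 0.41 and 8.55 TPM rest on 3 and 4 reads. In replicate 1 alone 0 fibroblast markers passed. PDGFRA was at 0.45 and 0.43 TPM, and LUM had 0 reads. Stromal genes counted only in the mesenchymal structural list were in part expressed. Beside COL1A2 these were ACTA2 (41.6 and 40.5 TPM), SPARC (25.99 and 24.25) and COL1A1 (18.5 and 17.97). In that list 8 of 18 were below 1 TPM. Of 8 endothelial markers, TIE1 passed (4.67 and 3.93 TPM), and CDH5, PECAM1 and VWF were at or below 0.49 TPM. Of 12 leukocyte markers, 3 passed: LAPTM5 (20.1 and 19.8 TPM), CORO1A (12.03 and 12.5) and CD68 (4.72 and 4.96). In replicate 1 alone 5 passed, with CD14 (1.43 and 0.43 TPM) and ITGAM (1.06 and 0.81). Of 7 germ cell and pluripotency markers, POU5F1 passed at 6.93 and 7.81 TPM, with reads that its pseudogenes may share, while NANOG and SOX2 were at or below 0.23 TPM. Of 13 neural and muscle markers, 5 passed: TUBB3 (235 and 229 TPM), ENO2 (54.9 and 47.9), CKM (8.13 and 7.4), RBFOX3 (1.96 and 2.72) and GFAP (2.24 and 1.93). TUBB3, a tubulin of neurons, and ENO2, an enolase of neurons, are also found in many cancer cell lines. Of 7 genes of ovarian granulosa cells and stroma, AMH passed at 2.18 and 2.1 TPM. In bulk RNA a low level in all cells and a high level in a few cells cannot be told apart.

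After SPP1, the genes of the secreted lists with a mean above 1000 TPM were CXCL1 and CXCL5 (chemokines), MIF (a cytokine), TFPI2 (a protease inhibitor) and IGFBP7. These lists do not hold every secreted product, for example SRGN (1665 and 1656 TPM). Of 16 chemokines, 12 were expressed and 7 were at 100 TPM or more. CXCL1 (GRO-alpha) had 2691 and 2527 TPM and was 27th among nuclear genes. CXCL5 had 1095 and 917 TPM. CXCL2 had 405 and 397 TPM and CXCL8, interleukin 8, had 381 and 338 TPM. CCL20, the ligand of CCR6, had 255 and 240.1 TPM. CXCL6 had 161 and 149.5 TPM and CXCL3 had 140.2 and 128 TPM.

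Apart from CCL20, these 7 chemokines are ligands of the neutrophil receptor CXCR2, and CXCL6 and CXCL8 also of CXCR1. The chemokines induced by interferon gamma and recruiting T cells were at the other end: CXCL10 had 0.08 and 0 TPM and CXCL11 had 0 reads. CCL2, which attracts monocytes, was between them at 23.1 and 23.8 TPM, CXCL12 was at 1.57 and 1.54 TPM and CCL5 at 0.63 and 0.51 TPM. Of the 10 chemokine receptors with a value, CCR10 (25.1 and 23.6 TPM), CXCR4 (13.5 and 15.9) and ACKR4 (1.64 and 1.04) were expressed, and the CCL20 receptor CCR6 had 0.03 TPM in both. CXCR1 and CXCR2 were not analysed here.

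The promoter stretches printed above belong to these genes. GGANTTTCC, searched on both strands in the 250 bases upstream of the start, was present in 1.47% of all 27303 promoters of the table. It was present in 6 of the 7 chemokines at or above 100 TPM: CXCL1, CXCL2, CXCL3, CXCL5, CXCL6 and CXCL8, between 77 and 91 bases upstream. CXCL1, CXCL2 and CXCL3 are neighbouring duplicates with nearly the same bases around the motif, as are CXCL5 and CXCL6, so the 6 are not independent.

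Of the 5 chemokines below 100 TPM with a RefSeq promoter, 2 held the motif as well, and these were CXCL10 and CXCL11, which had almost no reads. The letters of the motif were therefore found in both abundant and silent chemokine genes. Each of these chemokines held the spelling GGAATTTCC, a form of the motif found in 0.429% of all promoters, and in IL6 it was GGATTTTCC, 72 bases upstream. No match in this window was found for CCL20, nor for the other secreted genes searched, SPP1, TFPI2, FGB and TNF. These matches describe letters, and binding was not measured.

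Among NF-kB genes, all 16 were expressed. The inhibitor NFKBIA had 208 and 206 TPM, NFKBIZ 144 and 116 TPM, the subunit NFKB2 89.8 and 87.1 TPM, NFKB1 46.4 and 35.3 TPM and RELA 43.4 and 36.5 TPM. This list was added after the levels were seen.

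Cytokines were expressed in 13 of 27 cases. MIF, the macrophage migration inhibitory factor, had 1102 and 1266 TPM, and IL32 had 401 and 449 TPM. IL6 had 416 and 391 TPM. IL18 had 128 and 121 TPM and TNF, tumour necrosis factor, had 91.8 and 83.8 TPM. LIF had 24.0 and 21.5 TPM. IL1B had 0.18 and 0.17 TPM, IL1A had 0.51 TPM in both, and IL33 and TSLP had 0 reads. The cytokine genes at the top of the list were thus expressed without the interleukin 1 genes.

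Of cytokine receptor and JAK-STAT genes 25 of 34 were expressed, and the receptor side of interleukin 6 was uneven. IL6R, which binds the cytokine, had 0.96 and 0.74 TPM, whereas IL6ST (gp130), the shared signalling chain, had 27.9 and 21.5 TPM. OSMR, a partner of gp130, had 34.7 and 25.9 TPM and LIFR 6.62 and 4.9 TPM. Downstream, STAT3 had 60.0 and 47.4 TPM and its feedback inhibitor SOCS3 5.81 and 5.8 TPM. STAT5A and STAT5B were at 0.83 and 0.73 TPM and at 1.08 and 0.68 TPM.

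Growth factors and their inhibitors were expressed in 32 of 50 cases. GDF15, a stress-induced member of the TGF-beta family, had 726 and 699 TPM. CCN1, a matrix-bound target of YAP, had 526 and 541 TPM, and its relative CCN2 had 23.7 and 22.6 TPM. The Wnt inhibitor DKK1 had 135 and 129.9 TPM. Of the ligands of the EGF receptor, TGFA had 122 and 101 TPM and EREG 117 and 94.96 TPM, and EGF itself had 0.1 and 0.03 TPM. VEGFA had 31.3 and 26.1 TPM. HGF, the ligand of MET, had 0.09 and 0 TPM.

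Of insulin-like growth factor binding proteins, 5 of 6 were expressed, led by IGFBP7 at 1043 and 1042 TPM. IGFBP6 had 67.5 and 79.2 TPM and IGFBP5 0.41 and 0.36 TPM. IGF2 had 0.43 and 0.54 TPM.

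Matrix genes were expressed in 33 of 42 cases, and SPP1 was far above the others. After SPP1 came COL12A1 (219 and 186 TPM), the laminin chain LAMB1 (216 and 188) and COL1A2. Collagen IV, the network of basement membranes, had COL4A2 at 219 and 179 TPM and COL4A1 at 192 and 149.6 TPM. The laminin gamma chain LAMC1 had 188 and 152 TPM. Other basement membrane genes were lower, such as COL4A5 (34.9 and 26.1 TPM), LAMA5 (11.6 and 9), the linker NID1 (7.48 and 6.28) and COL4A6 (0.06 and 0.05). COL3A1 of fibroblast matrix had 0 and 0.02 TPM, and LUM, a proteoglycan of the same matrix, had 0 reads.

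SPP1 protein binds integrins and CD44, and their genes were expressed. ITGB1 had 1661 and 1421 TPM, ITGAV 139.6 and 104 TPM, ITGB3 91.6 and 74.5 TPM and ITGB5 86.8 and 75.6 TPM. CD44 had 472 and 397 TPM. ITGA3, a laminin receptor chain, had 392 and 355 TPM. Of 21 integrin genes 15 were expressed, and ITGAL, a chain of leukocyte integrin, was at or below 0.1 TPM.

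Some proteases and inhibitors were abundant, although the shares expressed were near that of all genes. Of proteases 17 of 26 were expressed (65.4%, against 71.5% of all genes). At 100 TPM or more were 7 of 26 proteases and 8 of 20 inhibitors, against 7.81% of all genes. PLAU, the urokinase that activates plasmin, had 897 and 834 TPM, with its receptor PLAUR at 40.7 and 39.6 TPM. The membrane protease MMP14 had 74.5 and 64.5 TPM, while MMP1, MMP2 and MMP9 were at or below 0.34 TPM. Among inhibitors 15 of 20 were expressed (75%). After TFPI2, TIMP1, which blocks matrix metalloproteases, had 708 and 719 TPM, and SERPINE2 had 465 and 426 TPM. WFDC2, which encodes the serum marker HE4 of ovarian cancer, had 2.32 and 2.59 TPM.

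Mucins coat secretory epithelia, and 1 of 11 was expressed: MUC1 at 5.74 and 4.56 TPM. MUC16, which encodes the serum marker CA125, had 0.02 and 0 TPM. MUC2, MUC5AC and MUC13 had 0 reads. Of complement and coagulation genes 19 of 24 were expressed, with FGB first, the complement regulator CD59 at 236 and 224 TPM and the central complement component C3 at 170.2 and 146 TPM.

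Metabolic genes were expressed at or above the share of all genes in most pathways. In glycogen metabolism, the feature that names the clear cell, 23 of 29 were at or above 1 TPM and none reached 100 TPM. GYS1, the sole glycogen synthase with a value, had 37.6 and 33.4 TPM, from 1676 and 1616 reads. The primer protein glycogenin came from GYG1 at 29.2 and 25.8 TPM, and GYG2 had 0.33 and 0.16 TPM. The branching enzyme GBE1 had 33.0 and 29.9 TPM.

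PGM1 and UGP2, which turn glucose 6-phosphate into the substrate of glycogen synthase, had 99.6 and 92.9 TPM and 83.1 and 80.1 TPM. On the breakdown side, liver-type PYGL (66.9 and 65.8 TPM) and brain-type PYGB (64.6 and 59.0 TPM) were near each other, and muscle-type PYGM had 0 and 0.03 TPM. The lysosomal glucosidase GAA had 42.9 and 39.2 TPM. Of the regulatory subunits that target phosphatase to glycogen, PPP1R3B was highest, at 15.1 and 12.5 TPM, and PPP1R3C had 0.36 TPM in both. Laforin (EPM2A) had 1.52 and 1.42 TPM and malin (NHLRC1) 0.11 and 0.17 TPM.

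Glycolysis and lactate genes were expressed in 21 of 29 cases and took 1.645% and 1.654% of the TPM. After GAPDH came LDHA (2267 and 2180.1 TPM), ENO1 (1892 and 1921), LDHB (1616 and 1730.1), PKM (1668 and 1651) and TPI1 (1092 and 1134). The lactate dehydrogenase genes were both abundant, with LDHA at 58.4% and 55.8% of the family. PFKFB3, which makes the activator of phosphofructokinase, had 329 and 283 TPM, above its paralogues PFKFB2 and PFKFB4, which were at or below 7.13 TPM.

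Of the hexokinases, which start glycolysis, HK1 had 112 and 97.8 TPM, 91.4% and 91.8% of hexokinase TPM, and HK2 had 10.5 and 8.5 TPM. Of the glucose transporters SLC2A1 was highest, at 77.2 and 70.1 TPM and 94.3% and 94.9% of the 4 transporters compared. Lactate transporters SLC16A3 (76.8 and 76.1 TPM) and SLC16A1 (54.7 and 47.3) were both present. Gluconeogenesis, with 4 of 7 genes expressed, had mitochondrial PCK2 (43.8 and 39.7 TPM) and G6PC3 (62.1 and 64.8), while cytosolic PCK1 had 0.57 and 0.42 TPM.

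Of 35 isozyme families, 30 had 2 or more members with a value. In 13 of these a single member held 90% or more of the TPM in the main calculation. GYG1, HK1, ALDOA, ENO1, PKM, SLC2A1, PCK2 and ACACA each did so in both libraries. Others were mixed. The 3 genes of carnitine palmitoyltransferase 1, which admits fatty acids to mitochondria, were CPT1A at 38.1% and 38.4%, CPT1B at 31.98% and 32% and CPT1C at 29.9% and 29.6%. Phosphofructokinase was PFKP at 48.2% and 47.7%, PFKM at 32.6% and 32.4% and PFKL at 19.2% and 19.96%. In creatine kinase, CKB held 54.2% and 55.1%, and the split between the near-identical CKMT1A and CKMT1B is uncertain.

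**Figure D4:**
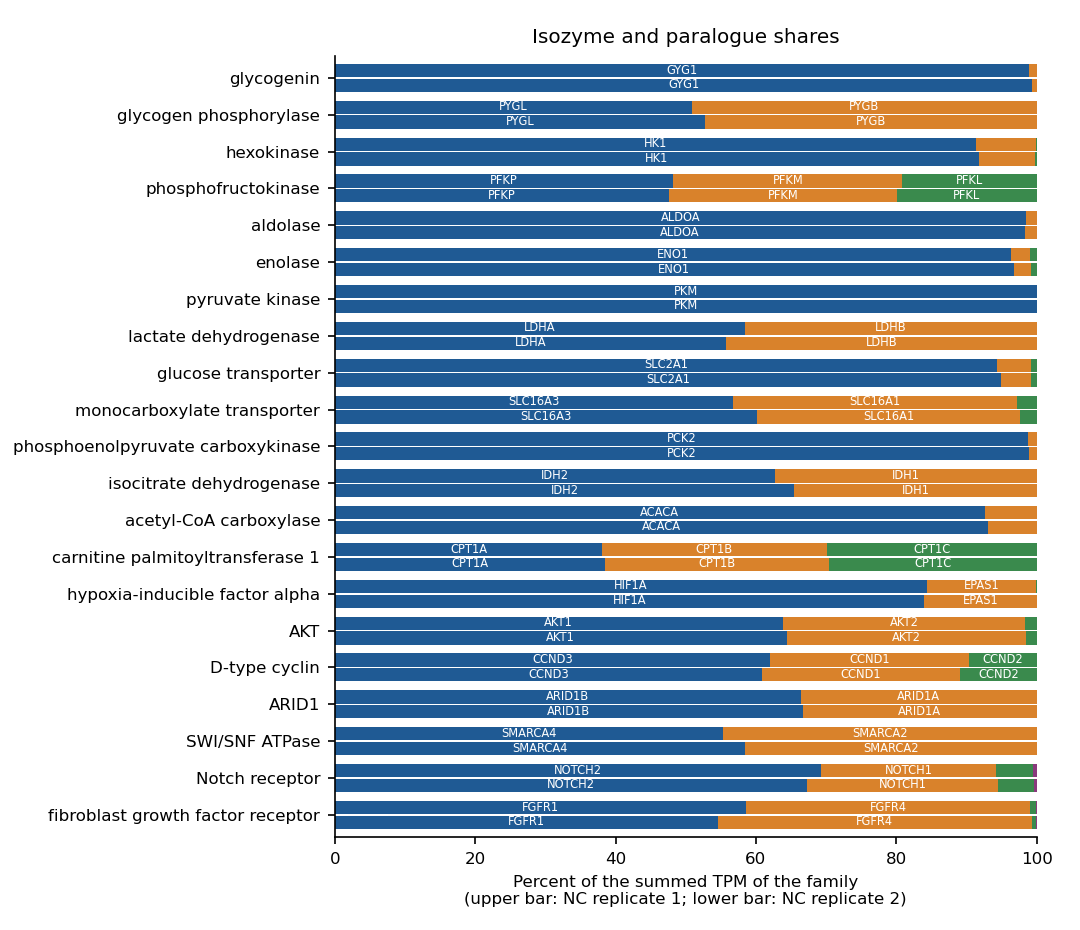
Share of each member in the summed TPM of its family (horizontal axis, percent, stacked from the most abundant member), with NC replicate 1 above and NC replicate 2 below in each row. Families such as pyruvate kinase are held by a single gene, and families such as phosphofructokinase and carnitine palmitoyltransferase 1 are split.

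All 29 citrate cycle genes were expressed, 28 of them at 10 TPM or more, with MDH1 at 339 and 349 TPM and the succinate dehydrogenase genes SDHC (202 and 191) and SDHA (193 and 189.5) near the top. Of nuclear genes of oxidative phosphorylation, 50 of 52 were expressed and 47 were at 100 TPM or more. ATP5ME had 1119 and 1369 TPM, COX8A 976 and 1132 TPM and COX6A1 929 and 969 TPM. The level of ATP5ME depends on length, because its 674 and 832 reads imply 44.4 and 41.2 bases in the deposited TPM. With recomputed lengths ATP5ME had a mean of 246 TPM and moved from overall rank 112 to 587. PDK4, which shuts pyruvate out of the cycle, had 84.6 and 77.3 TPM against 12.2 and 10.3 TPM for PDK1. All 23 cholesterol synthesis genes and all 22 genes of fatty acid oxidation and ketones with a value were expressed. So were 16 of 17 genes of fatty acid synthesis, 10 of 12 of the pentose phosphate pathway, 16 of 19 of serine, glycine and one-carbon metabolism and all 22 translation factors. TYMS, which makes thymidylate, led the one-carbon list at 242 and 252 TPM, and TKT led the pentose phosphate list at 266 and 259.6 TPM.

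Of amino acid enzymes 22 of 28 were expressed, and of amino acid transporters 15 of 21. ASS1, which makes argininosuccinate and is needed to form arginine from citrulline, had 0.78 and 0.54 TPM, while the next enzyme ASL had 53.9 and 52.0 TPM. BCAT1 had 0 and 0.06 TPM against 46.2 and 50.4 TPM for its mitochondrial paralogue BCAT2. SLC7A11, the cystine carrier, was at the threshold with 1.21 and 0.89 TPM, and its partner SLC3A2 had 63.6 and 67.8 TPM.

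Detoxification and antioxidant genes were expressed in 32 of 38 cases. AKR1B1, aldose reductase, had 2253 and 2152 TPM, the peroxiredoxin PRDX1 2142 and 2326 TPM, the glutathione transferase GSTP1 1883 and 1982 TPM and NQO1 693 and 711 TPM. NQO1 is a classical target of the stress-response factor NRF2. GPX4, which reduces lipid peroxides, had 544 and 566 TPM.

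Iron genes were uneven. FTH1 and the light chain FTL (2193 and 2498 TPM) were at the top, the import receptor TFRC had 145 and 118 TPM, and SLC40A1 (ferroportin), the exporter, had 0.17 and 0.13 TPM. Metallothioneins were expressed in 7 of 9 cases, with MT1E second at 109.5 and 123 TPM, although reads of these near-identical genes can be shared. Of 18 hypoxia genes 15 were expressed. HIF1A had 449 and 355 TPM. Its target genes spanned a wide range, from BNIP3 (150.3 and 150 TPM), P4HA1 (68.7 and 62.4), VEGFA (31.3 and 26.1) and NDRG1 (19.7 and 18.5) to CA9 and EGLN3, at or below 0.53 TPM.

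Signalling genes were mostly present, with selective receptors. Of 40 receptor tyrosine kinases, 22 were expressed. PTK7 had 83.7 and 78.8 TPM, the collagen receptor DDR1 80.8 and 65.9 TPM, FGFR1 61.9 and 50.4 TPM and AXL 57.4 and 52.4 TPM. After MET came ERBB2, which had 42.8 and 44.3 TPM and EGFR had 13.4 and 10.4 TPM. IGF1R had 5.0 and 4.07 TPM and INSR 1.17 and 0.89 TPM. PDGFRA, PDGFRB, DDR2 and RET were below 0.5 TPM in both libraries.

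All 29 RAS and MAPK genes were expressed. NRAS had 46.6 and 41.3 TPM and HRAS 44.6 and 50.8 TPM, with overlapping levels. MAP2K2, a kinase that activates ERK, had 138 and 128 TPM. Feedback genes of this pathway were in the list's upper part, with PHLDA1 at 93.2 and 84.2 TPM, SPRY2 at 79.7 and 72.1 TPM and DUSP6 at 39.3 and 31.2 TPM. In the PI3K, AKT and mTOR list 22 of 23 were expressed. AKT1 had 106 and 93.7 TPM and held 63.8% and 64.4% of AKT. PIK3CA, the catalytic subunit often mutated in this tumour, had 9.99 and 9.73 TPM.

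In the list of cell cycle control 24 of 27 were expressed. CDKN1A (p21), an inhibitor of cyclin-dependent kinases, had 348 and 321 TPM, and MDM2, a ubiquitin ligase, had 65.4 and 53.2 TPM. CDK4 had 174 and 184 TPM, and CDKN2A, which encodes its inhibitor p16, had 6.31 and 7.11 TPM. CCND3 was the main D-type cyclin, with 62.0% and 60.8% of that family. All 21 proliferation genes were at 10 TPM or more, from PCNA (327 and 347 TPM) and TYMS (242 and 252) to MKI67 (44.9 and 38.6) and BUB1 (29.4 and 27.8).

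Wnt genes were expressed in 24 of 36 cases. CTNNB1 (beta-catenin) had 177 and 151 TPM and the inhibitors DKK1, DKK3 and SFRP1 followed it. AXIN2 and RNF43, feedback targets of the pathway, had 0.32 and 0.52 TPM and 0.18 and 0.31 TPM, and LEF1 had 0 reads. SHH, the ligand sonic hedgehog, led the Notch and Hedgehog list at 47.2 and 42.9 TPM. Its receptor PTCH1 had 10.3 and 7.72 TPM and the target GLI1 5.27 and 8.49 TPM.

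The BMP targets ID1 (356 and 358 TPM) and ID3 (337 and 351) led the TGF-beta and BMP list, of which 17 of 20 were expressed. Of nuclear receptors 23 of 35 were expressed. NR2F2 (COUP-TFII) had 129.8 and 118 TPM and PPARG, the fat cell regulator, 53.4 and 50.4 TPM. NR3C1, the glucocorticoid receptor found in most cell types, had 0.1 and 0.06 TPM.

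Of 34 genes of death receptors and the BCL2 family, 32 were expressed. TNFRSF12A (the TWEAK receptor) had 227 and 241 TPM, BAX 167 and 173 TPM and MCL1 117 and 102 TPM, while BCL2 had 6.08 and 4.93 TPM. Of 18 genes of the YAP and TEAD list 17 were expressed, with YAP1, the transcriptional coactivator of the Hippo pathway, at 63.8 and 51.1 TPM.

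Chromatin and DNA repair genes were expressed nearly throughout. Of the SWI/SNF subunits 23 of 24 were expressed. ARID1A had 12 and 9.23 TPM, about 33.6% and 33.4% of the sum with its paralogue ARID1B, which had 23.7 and 18.5 TPM. RNA level carries no information on whether the ARID1A transcript is intact. The ATPases SMARCA4 (73.0 and 75.2 TPM) and SMARCA2 (59.1 and 53.4) were both present.

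The remaining subunits ran from SMARCE1 (131 and 134 TPM) and BCL7C (90.6 and 106) through SMARCB1 (92.2 and 99.6), ACTL6A (72.0 and 67.8), PHF10 (61.6 and 58.3), SS18 (61.1 and 55.4), SMARCD1 (52.6 and 48.8) and SMARCD2 (44.7 and 41.4). SMARCC2, DPF2, BRD7, SMARCC1, BCL7B, BRD9, BCL7A and PBRM1 lay between 11.4 and 41.6 TPM. ARID2 had 9.99 and 8.76 TPM, SMARCD3 9.3 and 9.31 TPM and DPF1 1.6 and 1.38 TPM, and DPF3, a subunit of neurons and muscle, was below 1 TPM.

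Mismatch repair corrects copying errors after replication. MSH6, part of the complex that recognises the mismatch, had 42.9 and 40.3 TPM. PMS2 (25.4 and 24.2 TPM), PMS1 (21.1 and 19.7), MSH3 (20.4 and 16.8), the nuclease EXO1 (16.5 and 15.6), MLH3 (6.31 and 8.06) and PCNA were also expressed.

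All 14 homologous recombination genes were expressed, with RAD51C highest (71.3 and 70.3 TPM), BRCA1 at 20.4 and 19.2 TPM and BRCA2 at 1.59 and 0.82 TPM. Of DNA methylation and Polycomb genes 15 of 16 were expressed. DNMT1, which copies DNA methylation, had 48.3 and 43.1 TPM and the Polycomb methyltransferase EZH2 34.3 and 30.7 TPM. The cytidine deaminases APOBEC3C (54.2 and 53.8 TPM) and APOBEC3B (44.8 and 46.2) were expressed. TERT, the catalytic part of telomerase, had 0.24 and 0.27 TPM.

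The antigen presentation genes of class I were expressed in 17 of 19 cases, with the chaperone CALR at 1124 and 1128 TPM, the light chain B2M at 578 and 572 TPM and HLA-C at 186 and 181 TPM. Reads of HLA genes can be shared between them. Class II was partial, with 4 of 10. HLA-DMB, which loads peptides, had 223 and 219 TPM and the invariant chain CD74 66.0 and 65.8 TPM. CIITA, the master regulator of class II, had 0.47 and 0.22 TPM, HLA-DRB1 had 0.58 and 0.55 TPM and HLA-DPB1 had 0 reads.

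In the list of ligands seen by immune cells, which holds restraining as well as activating or costimulating members, 18 of 24 were expressed. Among the restraining ligands, CD24, a signal against phagocytosis, had 2353 and 2188 TPM, although pseudogenes may share its reads, and CD47 61.9 and 56.1 TPM. CD276 (B7-H3) had 63.5 and 55.2 TPM. CD274 (PD-L1) had 0.11 and 0.16 TPM and PDCD1LG2 (PD-L2) 0.03 TPM in both. Of tumour surface antigens 23 of 29 were expressed, led by CD24, CD44 and L1CAM (139 and 127 TPM). MSLN (mesothelin) had 15.5 and 17.1 TPM. FOLR1, an antigen of serous ovarian cancer, had 0.76 and 2.15 TPM, on different sides of 1 TPM.

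Of innate sensors 12 of 23 were expressed. STING1 had 18.6 and 18.7 TPM, whereas CGAS, the DNA sensor that activates it, had 0.08 and 0 TPM, from 3 and 0 reads. Toll-like receptors were low, with TLR6 highest at 2.11 and 1.47 TPM and TLR4 and TLR9 at or below 0.08 TPM. Cancer-testis genes were expressed in 4 of the 13 with a value. MAGED2 (162 and 157 TPM), MAGED1 (141 and 139) and KDM5A (6.02 and 4.98) are broadly expressed in normal tissues. The remaining gene, PRAME, had 92.8 and 87.0 TPM, and the other 9, among them MAGEA4 at 0.36 and 0.46 TPM, were below 1 TPM.

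Gene families of specialised cells held many silent members. Of 77 olfactory receptor genes 2 were expressed, of 14 bitter taste receptors 1 and of 52 clustered protocadherins 9. Of 73 potassium channel genes 25 were expressed and of 44 cytochromes P450 15. By contrast all 78 mitochondrial ribosomal protein genes and 407 of 488 zinc finger genes named ZNF passed. These families were taken by name.

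Promoter composition differed between levels as well. Of the genes in the table, 13067 matched a RefSeq promoter by symbol. The median number of CpG in the 250 upstream bases was 6 for the 662 genes with 0 reads in both libraries, 8 for other genes below 0.1 TPM, 11 from 0.1 to 1 TPM and 20 from 1 to 10 TPM. It was 22 from 10 to 100 TPM, 21 from 100 to 1000 TPM and 20 for the 103 genes at 1000 TPM or more. The step therefore lay around 1 TPM, and above it the number changed little with level.

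A TATAAA on the gene's strand, 45 to 16 bases upstream, followed another pattern. It was found in 9.67% of genes with 0 reads and 5.28% of other genes below 0.1 TPM. From 0.1 to 1 TPM it was found in 5.185%, from 1 to 10 TPM in 1.84% and from 10 to 100 TPM in 1.09%. In the 2 highest classes it was found in 3.03% (30 of 989 genes) and 7.77% (8 of 103). It was present in 2.63% of all promoters of the table. These are descriptions over genes, which share families and neighbourhoods.

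SPP1 and MT2A show how far promoters of abundant genes differ. They are close in deposited TPM but not with recomputed lengths, at 5990 TPM for SPP1 and 1235 TPM for MT2A. SPP1 has 3 CpG in its 250 upstream bases and MT2A has 32. The 100 bases upstream of each are printed with CG in capitals, from chr4:87975614-87975713 (+) for SPP1 and chr16:56608484-56608583 (+) for MT2A (GRCh38.p14, RefSeq).
SPP1: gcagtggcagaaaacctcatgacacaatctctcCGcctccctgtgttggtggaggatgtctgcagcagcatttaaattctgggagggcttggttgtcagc
MT2A: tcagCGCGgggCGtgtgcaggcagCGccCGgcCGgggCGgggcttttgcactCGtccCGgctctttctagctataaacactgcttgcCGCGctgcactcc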

How the data were processed

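RNA-seq of 2 control libraries (NC) of TOV21G cells was used. Per the file headers the deposited table gives TPM, FPKM and a read count per gene and library. The authors' read counts are expected counts, since 17.6% and 17.1% are not whole (tolerance 1e-09). The authors' TPM sum to 1000000 per library. The submitters' processing notes name several aligners and counters without roles, and a mouse genome (mm10), while the gene identifiers are those of human. The tool behind the table was not stated. Of 16910 rows 16798 are protein-coding in GENCODE 29, so long noncoding RNAs were not analysed here, except TUG1 at 25.9 and 20.8 TPM.

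Genes were ranked by mean TPM with Python 3.11.15, pandas 2.3.3, numpy 2.4.6 and scipy 1.17.1. A gene counts as expressed at a mean of 1 TPM. No test was made, as 1 group of 2 libraries was used. Named genes are the 25 highest nuclear genes, SPP1, the highest and lowest members of each list, and all members of the clear cell, Mullerian, HOX, SWI/SNF and mismatch repair lists, some of which are not reported here. The 75 gene lists, 35 isozyme families and the members were chosen with earlier results of these data known, and 6 further lists (chemokine receptors, NF-kB, S100, annexins, proteasome core and a neighbouring gene) and the promoter motif were chosen after the levels were seen. List members not in the table were not analysed here. Promoters come from RefSeq, first listed start. The replicate comparison was tested on simulated data.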

Additional observations from a re-analysis of the deposited data

How the results depend on the processing

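No paired analysis was possible because only the NC group was used and no result comes from a test. Leaving out either library gave 12039 to 12117 genes at 1 TPM or more, 1295 to 1347 at 100 TPM or more, 19.02% to 19.79% of TPM in the 10 highest genes (mean 19.4%) and 42.1% to 43.3% in the 100 highest (mean 42.7%), 4387 to 4475 TPM for SPP1, 1165 to 1176 expressed list members of 1541 (1174, or 76.2%, with both libraries) and 13 isozyme families with a leading member. Thresholds of 0.5 and 5 TPM gave 12710 and 10103 expressed genes, and requiring 1 TPM in both libraries gave 11930. SPP1 was 3487 as FPKM, 5458 TPM after rescaling without mitochondrially encoded transcripts and 5990 TPM with recomputed lengths, an alternative chosen after seeing the data. The share of the 10 highest genes was 8.42%, 7.61% and 13.5% without mitochondrial transcripts, as CPM (counts scaled by depth, not by length), and with recomputed lengths. That of the 100 highest genes was 31.6%, 21.1% and 33.1% in the same order. CPM put 2196 genes at 100 or more, against 1321. Scaling without mitochondrial transcripts multiplies all nuclear genes alike, and the other causes were not tested. At 5 TPM, 14 of 81 lists changed their count of expressed members by over 1.5 times, and in the other settings 0 to 3 did. Those with few expressed members moved most: fibroblast markers had 0 without NC replicate 2 and leukocyte markers 5. Depth limits the low end, where 296 genes were on different sides of 1 TPM in the 2 libraries.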

Other observations

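Genes outside every list were also among the abundant ones, and these were chosen after their values were seen. SRGN, which encodes the proteoglycan serglycin of secretory granules, known best from blood cells, had 1665 and 1656 TPM. BCAS4 had 1017 and 1043 TPM. CYBA, a subunit of the NADPH oxidase, had 818 and 854 TPM, and SAT1, which acetylates polyamines for export, had 814 and 829 TPM. Annexins were led by ANXA2 (1027 and 1056 TPM), and of 12 annexins 10 were expressed. Of 13 S100 genes 9 were expressed, and after S100A6 and S100A4 came S100A11 (1693 and 1845 TPM), while S100A9 and S100B had 0 reads. All 14 genes of the proteasome core were expressed, from PSMA6 (531 and 551 TPM) to PSMB2 (44.3 and 48.7).

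Of 8246 genes at 10 TPM or more, 8 differed more than 2-fold between the libraries, and in several the reads did not differ. EXOG had 269 and 274 reads but 9.44 and 26.1 TPM. ME3 had 189 and 188 reads but 18.03 and 7.98 TPM. NCBP3 had 1199 and 1155 reads but 16.2 and 6.27 TPM. In these genes the deposited TPM used a different length in each library, as the ratio of reads to TPM shows.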
